A study of Mus musculus with 24 samples.

Results

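Transcripts that glucocorticoid hormones are known to induce were followed in 4 tissues of mice with a liver defect in mitochondrial translation. The set comprised 8 of the 24532 genes in the deposited expression table, *Fkbp5*, *Zbtb16*, *Klf9*, *Hif3a*, *Tsc22d3*, *Errfi1*, *Sgk1* and *Ddit4*, all found by their gene symbols. They were picked with their LKO and Ctrl values in these libraries already known, so that the difference between LKO and Ctrl is a description for them. The criterion applied to it below sorts the values by size and spread, is no independent test of the members, and is given without p-values. Ctrl mice carried floxed *Crif1* alleles without Cre (*Crif1* flox/flox), and LKO mice carried the same floxed alleles with Cre under the albumin promoter (*Alb*-Cre), which is active in hepatocytes and leaves *Crif1* in the other cells of the liver and in other organs. All mice had the C57BL/6 background, ate a chow diet and are labelled as 8 weeks old. RNA came from liver, inguinal white adipose tissue (iWAT), gastrocnemius muscle (GM) and hypothalamus, in 3 libraries of each genotype, 24 in all, named here by genotype and number (Ctrl 1, LKO 3). Whether 1 mouse gave several tissues, and whether the libraries of a group are separate mice, is not stated in the labels, so that p-values measure the spread between these libraries. The hour of collection and the feeding state of these mice are not given in the sources used here.

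Levels are FPKM, the fragments per kilobase of transcript and relative to the total fragments of the library, as the authors deposited them. Sequencing depth, as the ratio of FPKM to coverage places it, lay between 4.45 and 8.09 gigabases per library. The mean coverage of the members other than *Hif3a* ran from 5.62 to 3562 reads per base, and that of *Hif3a* from 0.115 to 24.9. *Crif1*, listed as *Gadd45gip1*, was at 12.5 to 14.6 FPKM in Ctrl livers and 2.0 to 5.40 FPKM in LKO livers, and its groups overlapped in the other tissues. In bulk tissue, fewer cells of a type and less RNA per cell cannot be told apart.

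Corticosterone, the main glucocorticoid of mice, is made by the adrenal cortex under the control of corticotropin-releasing hormone from the hypothalamus and of adrenocorticotropic hormone from the pituitary. It enters cells and binds the glucocorticoid receptor (*Nr3c1*), which is held ready by the chaperone HSP90 and then moves to the nucleus and binds DNA at palindromes of the hexamer AGAACA. Corticosterone rises with the daily cycle, fasting and stress. The genes described here respond in many organs and are widely used to read receptor activity.

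Upstream windows of the members were searched for that hexamer, because binding of the receptor close to a start site is known for some of them. RefSeq windows on GRCm38.p6 held 250 bases before a transcript start, and 7 of the 8 members matched, with 15 windows between them. The hexamer AGAACA, on either strand, was found in 4 of the 15 windows, those of *Sgk1* and *Tsc22d3*, against 16.1% of all 32851 windows. The full palindrome, AGAACA followed by any 3 bases and then TGTTCT, contains the hexamer on both strands. It was found in 1 member window, that of an *Sgk1* transcript, and in 3 of all windows, a share of 0.00913%. The 2 windows shown are this one and the single *Tsc22d3* window with a hexamer. Capitals mark each copy of the hexamer and the palindrome, the strand is that of the gene, and a match is a stretch of letters and not a measured binding site.
Sgk1, chr10:21993640-21993889, plus strand: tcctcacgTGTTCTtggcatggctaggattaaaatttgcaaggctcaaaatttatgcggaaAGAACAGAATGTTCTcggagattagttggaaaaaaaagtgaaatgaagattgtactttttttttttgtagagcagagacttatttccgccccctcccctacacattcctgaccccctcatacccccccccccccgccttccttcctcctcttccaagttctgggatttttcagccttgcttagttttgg
Tsc22d3, chrX:140600523-140600772, minus strand: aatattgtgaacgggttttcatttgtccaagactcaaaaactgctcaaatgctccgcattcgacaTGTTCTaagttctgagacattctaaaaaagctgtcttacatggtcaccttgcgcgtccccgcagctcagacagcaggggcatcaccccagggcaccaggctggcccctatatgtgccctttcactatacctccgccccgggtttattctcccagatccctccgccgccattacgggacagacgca
The palindrome of *Sgk1* began 189 bases before the start of that transcript, and the single hexamer of *Tsc22d3* began 185 bases before its start. The other 2 windows with a hexamer belonged to further *Sgk1* transcripts, with the copy at 195 and at 13 bases before the start. Windows of *Fkbp5*, *Klf9*, *Hif3a*, *Errfi1* and *Ddit4* had no match within these bases, and that of *Zbtb16* was not searched.

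To place the members among all genes, a gene was counted where the fold change between LKO and Ctrl was at least 1.5 on the scale of log2(FPKM + 1) with an unadjusted p under 0.05 from limma, among genes that reached 1 FPKM in 3 or more of the 6 libraries of the tissue. In liver 6 of the 7 members above that level met this criterion, 4 higher and 2 lower in LKO mice, where 28.9% of all tested genes did (25.2% higher and 3.75% lower). Of the liver calls over all genes 87.0% were higher, and 55.4% after the libraries were scaled to a common median ratio. In GM the share was 64.3%, and 38.8% without LKO 1 or 44.4% without Ctrl 2, and in iWAT 60.2%, and 37.2% without Ctrl 1. In hypothalamus it was 50.0%, and 32.4% without LKO 2, 36.4% without LKO 3 or 38.7% without Ctrl 2. In iWAT 2 of 8 members met it, 1 in each direction, against 3.25% of all genes (1.95% higher and 1.29% lower). In GM 0 of 7 did, against 0.901% (0.579% higher and 0.322% lower), and in hypothalamus 3 of 8 did, all higher, against 0.333% (0.166% higher and 0.166% lower). With an adjusted p under 0.05 in place of the unadjusted one, the share of all genes was 27.4% for liver, 0% for iWAT, 0% for GM and 0.0217% for hypothalamus. Groups without overlap were found for 5 of the 7 tested members in liver, where 61.1% of all tested genes had them, for 2 of 8 in iWAT (20.8%), 0 of 7 in GM (11.6%, of which 4.38% higher and 7.2% lower) and 3 of 8 in hypothalamus (9.7%, of which 4.97% lower). These counts used the contrast the members were picked on, and nothing is read from them. *Hif3a* stayed under the level for testing in liver and GM.

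**Figure D1:**
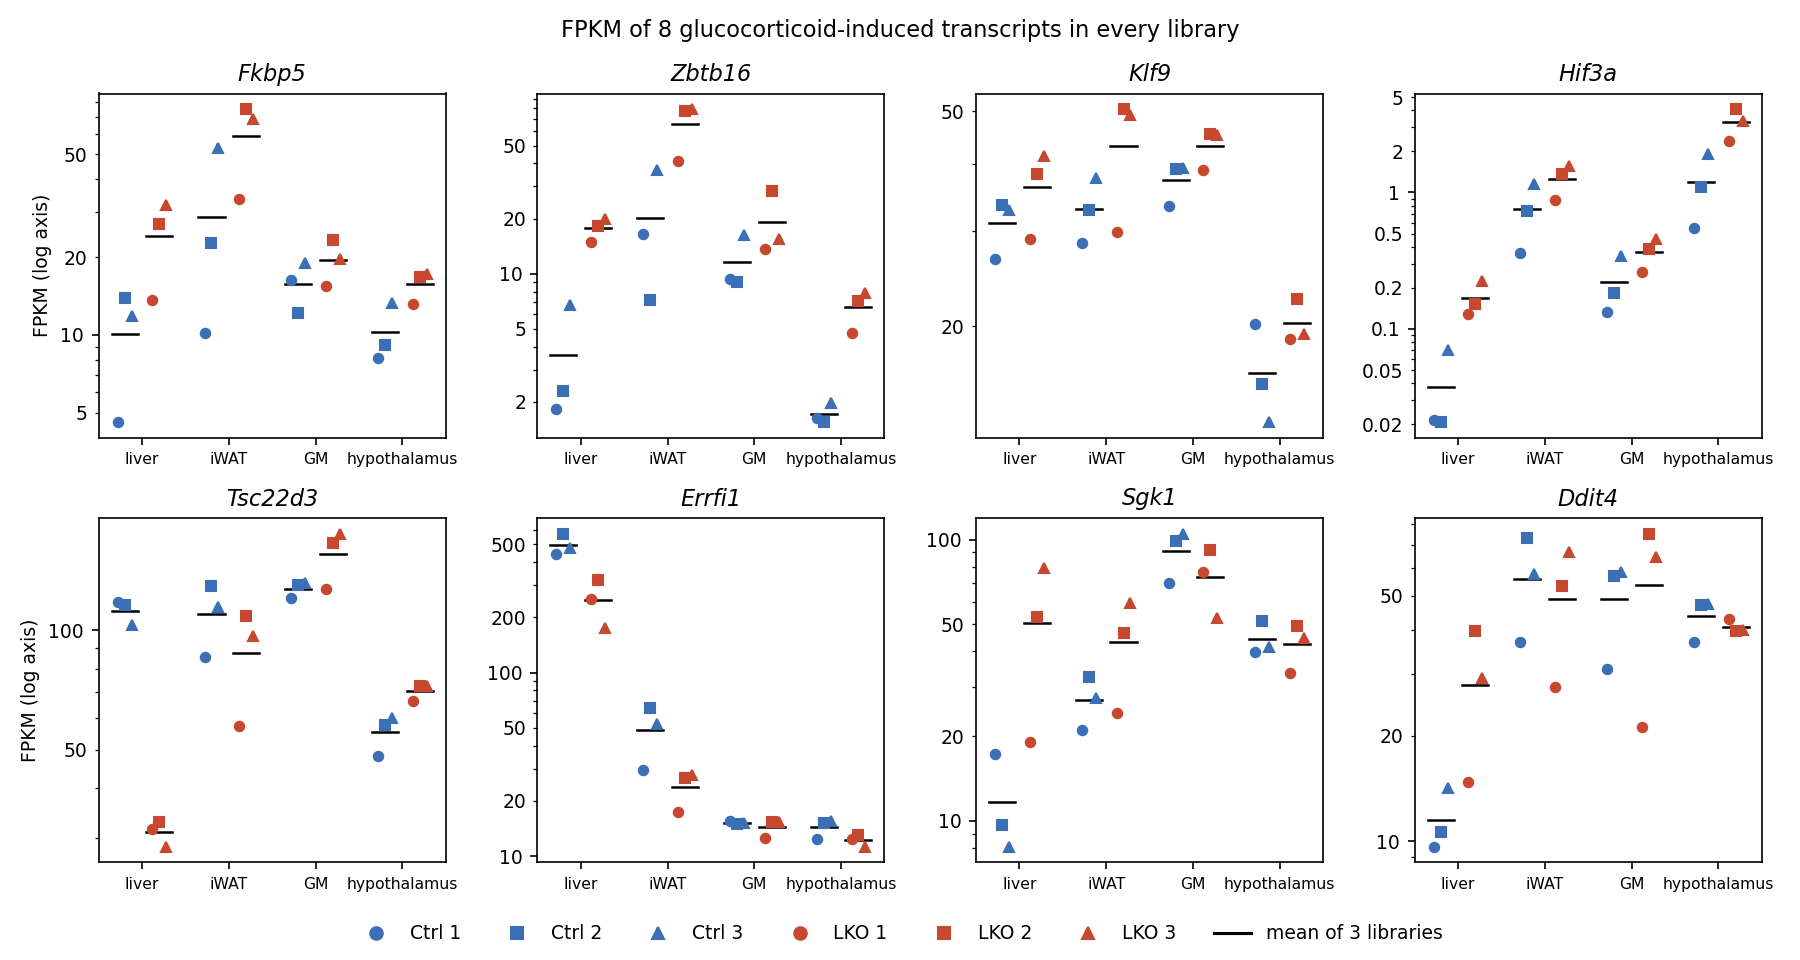
FPKM (log axis) of the 8 transcripts in each of the 24 libraries, by tissue, with Ctrl in blue and LKO in red, the library number as the shape of the point and the mean of 3 libraries as a line. *Zbtb16* in liver, iWAT and hypothalamus shows LKO libraries above all Ctrl libraries, and *Tsc22d3* in liver shows them below.

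*Fkbp5* (NCBI Gene 14229, mm10 chromosome 17 from 28398753 to 28486149) encodes a co-chaperone of HSP90 that lowers the affinity of the receptor for its ligand and thereby closes a feedback loop. In liver it was at 4.60, 13.9 and 11.8 FPKM in Ctrl 1 to 3 and at 13.7, 26.8 and 31.8 FPKM in LKO 1 to 3, a log2 fold change of 1.21 with a standard error of 0.43. In iWAT the Ctrl libraries had 10.2, 22.6 and 53.1 FPKM and the LKO libraries 33.6, 74.9 and 68.5 FPKM, a log2 fold change of 1.23 with a standard error of 0.58. Its groups overlapped in both tissues, through LKO 1 in each. In hypothalamus it was at 8.16, 9.18 and 13.3 FPKM in Ctrl and 13.2, 16.7 and 17.2 FPKM in LKO libraries, a log2 fold change of 0.59 with a standard error of 0.18, and LKO 1 lay just under Ctrl 3. In GM the means were 15.8 ± 3.46 FPKM in Ctrl and 19.5 ± 3.87 FPKM in LKO (SD, n = 3 each), a log2 fold change of 0.29 that was 0.12 without Ctrl 2, 0.16 without LKO 2 and 0.43 without LKO 1. *Fkbp5* thus had a higher mean in LKO mice in each tissue. The criterion was no longer met in liver without Ctrl 1 (log2 fold change 0.78), LKO 2 (1.10) or LKO 3 (0.98) or after median-ratio scaling (0.84), quantile normalization (0.87) or with ordinary variances, nor in hypothalamus without Ctrl 1 (0.46), Ctrl 2 (0.53), LKO 2 (0.54) or LKO 3 (0.53), with ordinary variances or in 1 fit of all 24 libraries. In iWAT it was met without Ctrl 3 (1.80) and in 1 fit of all 24 libraries (1.23), whereas the value fell to 0.67 without Ctrl 1.

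*Zbtb16* (NCBI Gene 235320, chromosome 9 from 48654297 to 48835945) encodes the zinc finger repressor PLZF. Its liver level was 1.84, 2.31 and 6.74 FPKM in Ctrl 1 to 3 and 14.99, 18.2 and 19.9 FPKM in LKO 1 to 3, so that the LKO mean was 4.88 times the Ctrl mean. On the log2 scale this was 2.16 with a standard error of 0.36, 2.60 without Ctrl 3 and 1.82 after median-ratio scaling. All LKO livers were above all Ctrl livers, the Ctrl library nearest to them being Ctrl 3. In iWAT, where its level was the highest of the 4 tissues, the Ctrl libraries had 16.5, 7.22 and 37.0 FPKM and the LKO libraries 41.0, 77.0 and 79.0 FPKM, with means 3.24 times apart and a log2 fold change of 1.86 with a standard error of 0.55. In hypothalamus the level was low, at 1.63, 1.55 and 1.96 FPKM in Ctrl and 4.75, 7.13 and 7.90 FPKM in LKO libraries, and the log2 fold change was 1.46 with a standard error of 0.16. The groups did not overlap in either tissue. In GM it was at 9.40, 9.02 and 16.4 FPKM in Ctrl and 13.6, 28.2 and 15.4 FPKM in LKO libraries, a log2 fold change of 0.65 with a standard error of 0.30, where Ctrl 3 lay above LKO 1 and LKO 3. The GM value met the criterion without Ctrl 3 (0.91) or LKO 1 (0.85) and was 0.34 without LKO 2, 0.51 without Ctrl 2 and 0.54 without Ctrl 1. *Zbtb16* was the only member whose groups were apart in 3 tissues in the same direction, where 53% of all tested genes in liver, 9.76% in iWAT and 4.74% in hypothalamus were higher in LKO mice without overlap.

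*Klf9* (NCBI Gene 16601, chromosome 19 from 23141226 to 23166911, with *Mir1192* inside it on the same strand) encodes a zinc finger transcription factor that represses many of its targets. Its mean was higher in LKO mice in each tissue by less than the 1.5-fold limit, from 31.0 ± 3.77 to 36.2 ± 6.41 FPKM in liver, 33.0 ± 4.59 to 43.2 ± 11.5 FPKM in iWAT, 37.3 ± 3.30 to 43.2 ± 3.64 FPKM in GM and 16.4 ± 3.49 to 20.3 ± 1.93 FPKM in hypothalamus (SD, n = 3 each). The groups overlapped in all 4. On the log2 scale these differences came to 0.21, 0.35, 0.21 and 0.31. The liver value changed sign with median-ratio scaling (-0.18) and with quantile normalization (-0.09), and it was 0.11 without Ctrl 1 or LKO 3 and 0.36 without LKO 1. The GM value was 0.13 without Ctrl 1, and the hypothalamic value 0.18 without Ctrl 3. Without LKO 1 the iWAT value was 0.59 and met the criterion, and it was 0.22 without LKO 2 and 0.24 without LKO 3.

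*Hif3a* (NCBI Gene 53417, chromosome 7 from 17030993 to 17062427) encodes a relative of the hypoxia-inducible factors, some forms of which oppose the others. In hypothalamus it was at 0.547, 1.09 and 1.91 FPKM in Ctrl and 2.38, 4.08 and 3.34 FPKM in LKO libraries, a log2 fold change of 0.99 with a standard error of 0.24 on the scale with 1 FPKM added, which understates changes of transcripts at this level. With 0.1 FPKM added instead the value was 1.51. All LKO libraries lay above all Ctrl libraries. In iWAT it was at 0.362 to 1.16 FPKM in Ctrl and 0.880 to 1.56 FPKM in LKO libraries. In liver it was near 0, at 0.0208 to 0.0696 FPKM in Ctrl and 0.128 to 0.225 FPKM in LKO, and in GM at 0.133 to 0.344 FPKM and 0.260 to 0.458 FPKM. The LKO libraries were above the Ctrl libraries without overlap in liver too, at a *Hif3a* coverage of 0.115 to 1.05 reads per base.

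*Tsc22d3* (NCBI Gene 14605, chromosome X from 140539529 to 140600522) encodes GILZ, a leucine zipper protein through which glucocorticoids restrain inflammation. In liver it was at 118, 115 and 103 FPKM in Ctrl 1 to 3 and at 31.6, 32.9 and 28.5 FPKM in LKO 1 to 3, so that the Ctrl mean was 3.61 times the LKO mean. The log2 fold change was -1.82 with a standard error of 0.11, and -2.21 after median-ratio scaling. Every LKO liver was below every Ctrl liver, and the direction was opposite to that of *Fkbp5* and *Zbtb16* in the same libraries. In hypothalamus it was at 48.2, 57.6 and 60.0 FPKM in Ctrl and 66.2, 72.4 and 72.5 FPKM in LKO libraries, a log2 fold change of 0.35 with a standard error of 0.09, without overlap. The change stayed under 1.5-fold. In iWAT the means were 110 ± 22.0 FPKM in Ctrl and 87.6 ± 26.8 FPKM in LKO, and in GM 127 ± 5.81 FPKM and 156 ± 25.6 FPKM (SD, n = 3 each), with overlapping groups and log2 fold changes of -0.35 and 0.28. The iWAT value was -0.08 without LKO 1, -0.23 without Ctrl 2 and -0.53 without LKO 2, and the GM value was 0.42 without LKO 1 and 0.19 without LKO 3.

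*Errfi1* (NCBI Gene 74155, chromosome 4 from 150855091 to 150868880) encodes MIG6, an inhibitor of the EGF receptor. In liver it was at 440, 571 and 477 FPKM in Ctrl and 253, 321 and 175 FPKM in LKO libraries, a log2 fold change of -1.02 with a standard error of 0.23, which became -1.42 after median-ratio scaling. In iWAT it was at 29.6, 64.3 and 52.2 FPKM in Ctrl and 17.4, 26.6 and 27.5 FPKM in LKO libraries, a log2 fold change of -0.96 with a standard error of 0.30. In both tissues all LKO libraries were below all Ctrl libraries. Groups lower in LKO mice without overlap made up 8.1% of the tested genes in liver and 11% in iWAT. The iWAT value no longer met the criterion without Ctrl 3 (-0.87) or LKO 1 (-0.76). In GM the means were 15.2 ± 0.263 and 14.4 ± 1.69 FPKM, and in hypothalamus 14.3 ± 1.67 and 12.2 ± 0.869 FPKM, for Ctrl and LKO (SD, n = 3 each), with overlap in both.

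*Sgk1* (NCBI Gene 20393, chromosome 10 from 21882184 to 21999902) encodes a kinase that acts on ion channels and on FOXO factors and is also induced by mineralocorticoids and insulin. Its liver level was 17.3, 9.67 and 8.10 FPKM in Ctrl 1 to 3 and 19.1, 52.8 and 79.4 FPKM in LKO 1 to 3, a log2 fold change of 1.87 with a standard error of 0.50. The groups were apart, but LKO 1 exceeded Ctrl 1 by little. The value was 2.44 without LKO 1, 1.44 without LKO 3 and 1.49 after median-ratio scaling. In iWAT it was at 21.0 to 32.4 FPKM in Ctrl and 24.2 to 59.3 FPKM in LKO libraries, a log2 fold change of 0.60 that met the criterion without LKO 1 (0.96) and was 0.33 without LKO 3. In GM the means were 91.3 ± 18.6 FPKM in Ctrl and 73.6 ± 19.8 FPKM in LKO, and in hypothalamus 44.3 ± 6.30 FPKM and 42.4 ± 8.06 FPKM (SD, n = 3 each). Both of these pairs overlapped, and the hypothalamic log2 fold change of -0.07 changed sign without Ctrl 2 (0.04) or LKO 1 (0.09).

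*Ddit4* (NCBI Gene 74747, chromosome 10 from 59949675 to 59951770) encodes REDD1, an inhibitor of mTORC1 that ATF4 and hypoxia also induce. In liver it was at 9.67, 10.7 and 14.2 FPKM in Ctrl and 14.7, 39.6 and 29.2 FPKM in LKO libraries, a log2 fold change of 1.12 with a standard error of 0.33. The groups were apart by the small distance between Ctrl 3 and LKO 1, and the criterion was no longer met with ordinary variances. After median-ratio scaling the liver value was 0.74. In the other tissues the groups overlapped, with means of 55.9 ± 18.1 and 49.1 ± 19.8 FPKM in iWAT, 48.8 ± 15.5 and 53.6 ± 28.6 FPKM in GM and 43.7 ± 5.89 and 40.8 ± 1.75 FPKM in hypothalamus for Ctrl and LKO (SD, n = 3 each). The widest spread was in GM, where LKO 1 had 21.1 FPKM and LKO 2 had 75.2 FPKM.

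**Figure D2:**
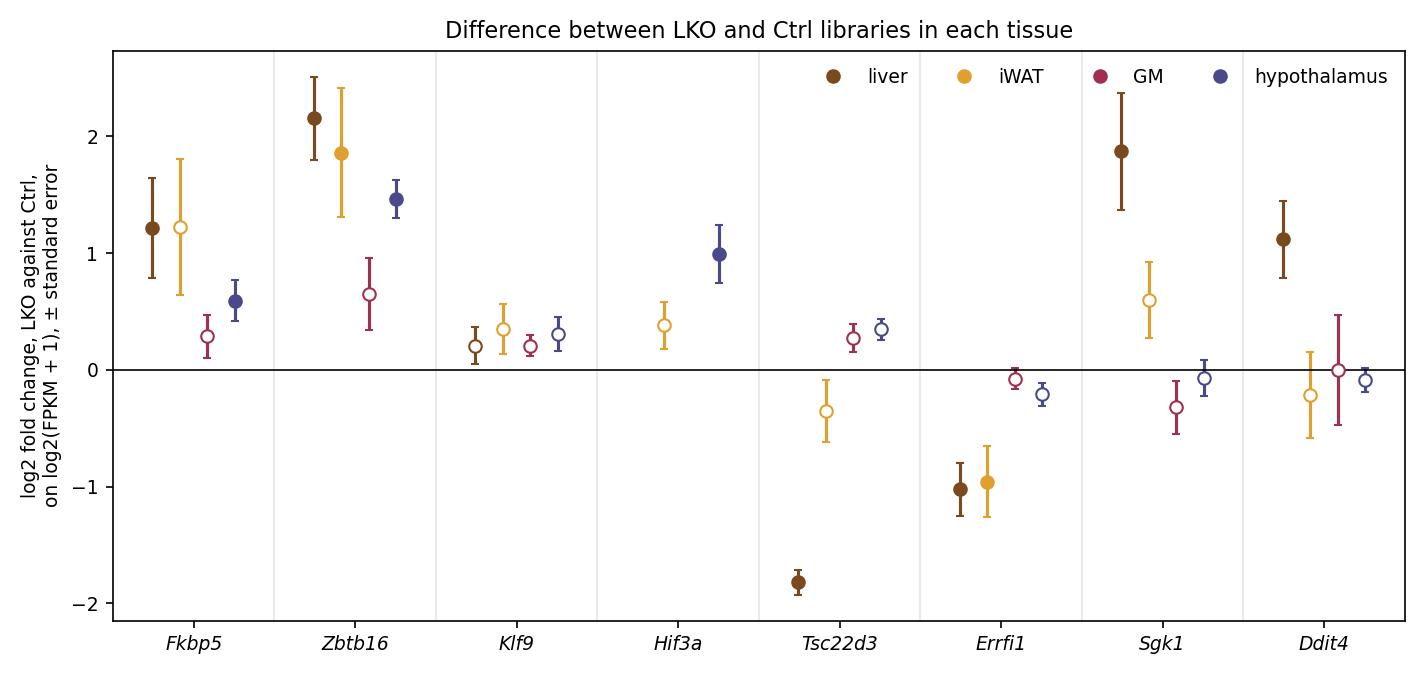
Log2 fold change of LKO against Ctrl on log2(FPKM + 1) with its standard error (3 libraries per group) for each transcript and tissue. Filled points met the criterion of 1.5-fold with an unadjusted p under 0.05, and in liver they lie between -1.82 for *Tsc22d3* and 2.16 for *Zbtb16*.

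The median log2 fold change of the members above the level for testing came to 1.12 (liver), 0.37 (iWAT), 0.21 (GM) and 0.33 (hypothalamus), beside 0.33, -0.01, -0.03 and -0.01 over all tested genes. Leaving out 1 library moved the iWAT value to 0.23 (without Ctrl 1), 0.22 (LKO 2), 0.24 (LKO 3) or 0.55 (LKO 1) and the GM value to 0.13 (Ctrl 1), 0.14 (Ctrl 2) or 0.42 (LKO 1). In liver it was 0.74 after median-ratio scaling, which brought the median of all genes to -0.01. Lists of cell type markers moved with genotype in these libraries, and the name of a list does not show that those cells were present. In hypothalamus 4 of 4 pituitary hormone genes (*Gh*, *Prl*, *Cga* and *Tshb*) were higher in LKO libraries without overlap, and their summed level was 49.9, 52.8 and 7.09 FPKM in Ctrl 1 to 3 and 588, 172 and 129 FPKM in LKO 1 to 3. In the same tissue 3 of 4 endothelial markers were lower, with sums of 24.6 to 28.2 FPKM in Ctrl and 21.1 to 23.5 FPKM in LKO. In iWAT 3 of 4 endothelial markers were higher (110.5 to 128 and 171 to 225 FPKM summed), and so were 2 of 4 neutrophil markers (3.69 to 5.07 and 8.58 to 19.0 FPKM, with *Ly6g* under 0.1 FPKM in all libraries) and 2 of 6 hepatocyte markers (17.4 to 29.6 and 42.4 to 63.4 FPKM). In liver 4 of 4 macrophage and Kupffer cell markers (58.2 to 59.2 and 109 to 194 FPKM), 3 of 4 neutrophil markers (1.00 to 1.58 and 7.63 to 9.69 FPKM, again with *Ly6g* under 0.1 FPKM) and 3 of 4 endothelial markers (21.6 to 25.4 and 29.7 to 47.1 FPKM) were higher, and 3 of 6 hepatocyte markers were lower, with summed levels that overlapped. In hypothalamus 2 of 6 skeletal muscle markers were also higher (9.61 to 14.4 and 15.8 to 17.3 FPKM), and in liver 3 of 5 markers of mammary and other epithelium were (192 to 284 and 669 to 783 FPKM), with the basal keratins *Krt5* and *Krt14* under 0.1 FPKM. The summed level was also higher without overlap for epithelial markers in hypothalamus (3.25 to 3.58 and 3.92 to 5.92 FPKM), oligodendrocyte markers in iWAT (58.5 to 76.7 and 83.5 to 117 FPKM, with *Mog* under 0.1 FPKM) and adipocyte markers in liver (13.3 to 15.98 and 23.2 to 30.3 FPKM, with *Plin1* and *Lep* under 0.1 FPKM). For astrocyte markers in liver the sum was lower (434 to 519 and 259 to 348 FPKM), although 2 of the 4 markers were higher and 1 was lower. The sum of neuron markers was lower in liver (2.83 to 3.38 and 1.69 to 1.90 FPKM) and higher in iWAT (2.15 to 2.52 and 2.57 to 2.91 FPKM), with 1 of 6 markers higher and 1 lower in each and with *Slc17a6* and *Gad1*, and in liver *Stmn2*, under 0.1 FPKM. In GM the summed level of 1 list, that of brown or beige adipocytes, was lower without overlap (1265 to 1339 and 1181 to 1255 FPKM). Of its 5 markers 1 was lower without overlap. Which cells these levels came from, and their part in the values of the members, was not tested.

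Between the 4 tissues of Ctrl mice, which the choice of the members did not use, levels were compared in a limma fit of the 12 Ctrl libraries over 15320 genes. *Hif3a* reached 1 FPKM only in 3 hypothalamus and iWAT libraries and so entered the fit through the tissues where it was high, and its levels are given without a test. The F test over tissues had an adjusted p under 0.05 for 6 of the other 7 members, and for 99% of all genes. The exception was *Fkbp5* (adjusted p 0.101, and 0.0264 with the library number as a block), at 10.1 ± 4.90 (liver), 28.6 ± 22.1 (iWAT), 15.8 ± 3.46 (GM) and 10.2 ± 2.74 FPKM (hypothalamus) (SD, n = 3 each), for which the pair of iWAT and liver alone passed (log2 difference 1.24, adjusted limma p 0.0384), joined under the block by that of hypothalamus and iWAT (-1.14, adjusted limma p 0.0161, and 0.0540 without it). Of the 42 pairs of tissues over these 7 members, 25 had an adjusted p under 0.05, against 80.4% of the pairs over all genes.

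*Errfi1* had the steepest order, from 496 ± 67.5 FPKM in liver over 48.7 ± 17.6 in iWAT to 15.2 ± 0.263 in GM and 14.3 ± 1.67 in hypothalamus (SD, n = 3). The difference between iWAT and liver was -3.38 on the log2 scale (adjusted limma p 3.5e-08), and GM and hypothalamus could not be separated (adjusted p 0.731). *Sgk1* ran the other way, from 91.3 ± 18.6 FPKM in GM over 44.3 ± 6.30 in hypothalamus and 26.9 ± 5.68 in iWAT to 11.7 ± 4.93 in liver, and each neighbour in that order differed (adjusted limma p 0.00241, 0.0206 and 9.1e-04). *Ddit4* was lowest in liver, at 11.5 ± 2.36 FPKM, with a log2 difference from hypothalamus of 1.85 (adjusted limma p 4.2e-05), while iWAT, GM and hypothalamus could not be separated from each other (adjusted p 0.326 to 0.718). *Zbtb16* formed a pair of levels, with 20.3 ± 15.2 FPKM in iWAT and 11.6 ± 4.13 in GM above 3.63 ± 2.70 in liver and 1.72 ± 0.219 in hypothalamus. The GM and liver values differed by 1.55 on the log2 scale (adjusted limma p 0.0148), and neither the upper pair (adjusted p 0.355) nor the lower (adjusted p 0.255) could be separated.

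*Tsc22d3* and *Klf9* were both lowest in hypothalamus, at 55.2 ± 6.22 and 16.4 ± 3.49 FPKM, with log2 differences from liver of -1.01 for *Tsc22d3* (adjusted limma p 1.8e-05) and -0.89 for *Klf9* (adjusted limma p 1.2e-04). Liver, iWAT and GM could not be separated for either, with adjusted limma p from 0.140 to 0.782 for *Tsc22d3* and from 0.1395 to 0.636 for *Klf9*. *Hif3a* was at 1.18 ± 0.687 FPKM in hypothalamus, 0.754 ± 0.401 in iWAT, 0.220 ± 0.111 in GM and 0.0373 ± 0.0280 in liver (SD, n = 3 each). Its hypothalamus and iWAT libraries overlapped, whereas all GM libraries were below both and all liver libraries below those of GM. Across the set, *Tsc22d3* had the highest mean Ctrl FPKM of the 8 members in iWAT, GM and hypothalamus, and *Errfi1* in liver. By coverage *Ddit4* was above *Tsc22d3* in each Ctrl hypothalamus library, so that the order of genes depends on the measure.

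**Figure D3:**
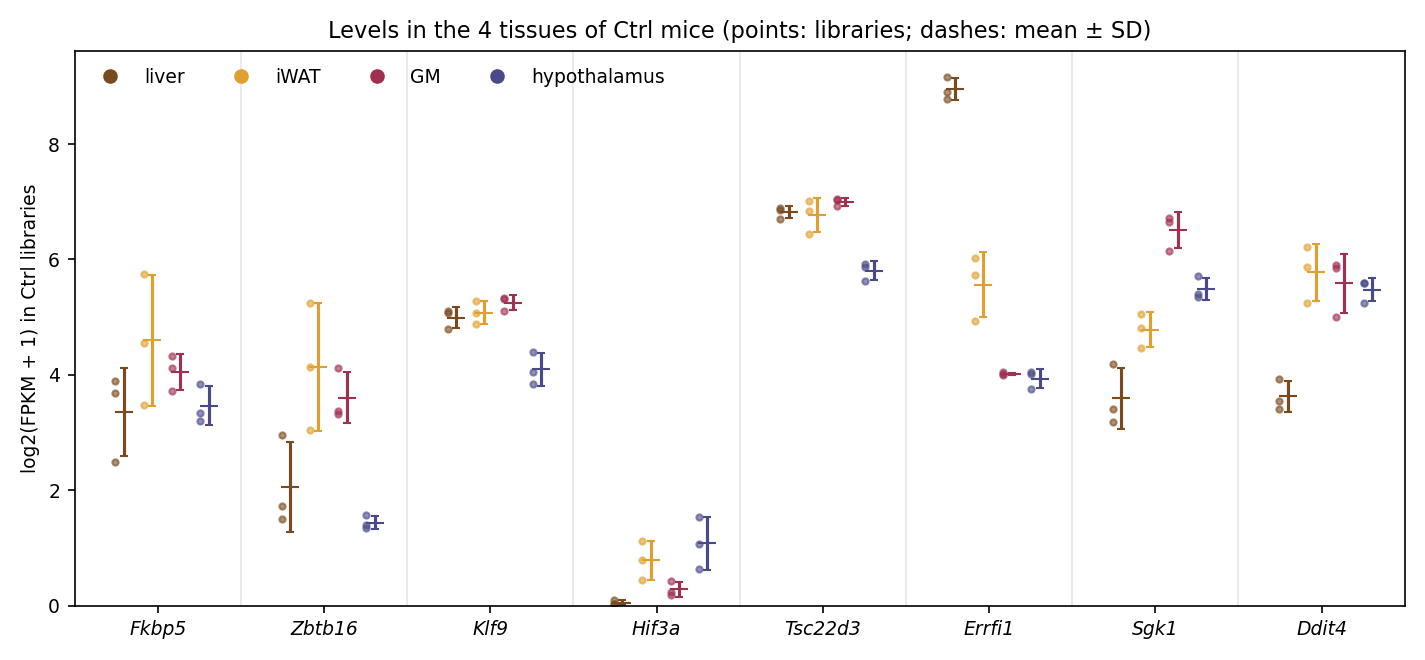
Levels of the 8 transcripts as log2(FPKM + 1) in the 12 Ctrl libraries, by tissue, with each library as a point and the mean with its SD beside it. *Errfi1* stands highest in liver, *Sgk1* in GM, and *Tsc22d3* and *Klf9* are lowest in hypothalamus.

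The machinery upstream of these transcripts was examined in lists of pathway genes. The lists, like the members, were written with earlier results of these data known, so that their counts are set beside the share of all tested genes and nothing particular to a list is read from them. That share was 28.9% in liver (25.2% higher and 3.75% lower), where the split by direction depended on scaling, as it did on single libraries in iWAT, GM and hypothalamus, 3.25% in iWAT (1.95% higher and 1.29% lower), 0.901% in GM (0.579% higher) and 0.333% in hypothalamus (0.166% higher). The receptor *Nr3c1* had means of 11 ± 1.5 FPKM in Ctrl and 9.51 ± 0.539 in LKO livers, 27.8 ± 3.05 and 20.5 ± 1.43 FPKM in iWAT, 13.6 ± 1.58 and 13.7 ± 1.75 FPKM in GM, and 11.1 ± 1.57 and 10.6 ± 0.734 FPKM in hypothalamus (SD, n = 3 each). Only in iWAT were the groups apart, with a log2 fold change of -0.42, under the 1.5-fold limit (adjusted limma p 0.156). *Hsd11b1*, the enzyme that regenerates active corticosterone inside cells, fell in liver from 316 ± 42.7 to 153 ± 40.9 FPKM without overlap, a log2 fold change of -1.06 (adjusted limma p 0.00797). In iWAT its mean was 131 ± 41.9 FPKM in Ctrl and 247 ± 95.8 FPKM in LKO, a log2 fold change of 0.88 with overlapping groups (limma unadjusted p 0.0351, adjusted p 0.289). That value met the criterion only narrowly and no longer did without Ctrl 2 (0.91), Ctrl 3 (0.63), LKO 1 (0.90) or LKO 2 (0.60). In GM and hypothalamus its log2 fold changes were 0.25 and -0.29, and the GM value ranged from 0.02 without LKO 1 to 0.43 without Ctrl 1.

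Of the receptor, ligand supply and chaperone list, 3 of 14 tested genes, or 21.4%, passed in liver (*Hsd11b1* lower, *Hsp90aa1* and *Nrip1* higher), below the 28.9% of all genes, 1 of 13 in iWAT (*Hsd11b1*), 1 of 13 in GM (*Nrip1*) and 0 of 12 in hypothalamus. The other 11 tested genes in liver lay between -0.18 for *Nr3c1* and 0.55 for the co-chaperone *Ptges3* on the log2 scale, those in iWAT between -0.42 for *Nr3c1* and 0.38 for *H6pd*, those in GM between -0.34 for *Nr3c2* and 0.25 for *Hsd11b1*, and those in hypothalamus between -0.29 for *Hsd11b1* and 0.09 for *Stip1*. *Hsp90aa1*, a chaperone of the receptor, was higher in LKO livers, at 113 ± 15 FPKM against 63.0 ± 10.8 FPKM (log2 fold change 0.84, adjusted limma p 0.00821), with 0.45 after median-ratio scaling, under the limit. *Nrip1*, a corepressor of nuclear receptors, was at 0.851 ± 0.368 and 1.90 ± 0.587 FPKM in Ctrl and LKO livers (log2 fold change 0.64, adjusted limma p 0.0348) and at 2.26 ± 0.333 and 3.95 ± 0.264 FPKM in GM (log2 fold change 0.61, adjusted limma p 0.375). The liver call of *Nrip1* was lost without Ctrl 1 (0.57), Ctrl 3 (0.55) or LKO 3 (0.50) and with median-ratio scaling (0.42), and the GM call without Ctrl 1 (0.53) or LKO 3 (0.57).

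Among 8 hormone and receptor genes of the axis tested in hypothalamus, 1 passed. *Crh*, which encodes corticotropin-releasing hormone, was at 2.93 ± 1.73 FPKM in Ctrl and 5.24 ± 1.33 FPKM in LKO libraries with overlap (log2 fold change 0.73, limma unadjusted p 0.0428, adjusted p 0.999), and the call was lost without Ctrl 2 (0.63), Ctrl 3 (0.50), LKO 2 (0.58) or LKO 3 (0.72). *Avp* was at 680 ± 155 and 697 ± 19.3 FPKM, *Pomc* at 68.2 ± 27.8 and 70.3 ± 37.9 FPKM, *Oxt* at 453 ± 137 and 531 ± 46.3 FPKM, *Crhbp* at 9.43 ± 2.30 and 8.91 ± 0.886 FPKM, *Avpr1a* at 2.2 ± 0.427 and 2.63 ± 0.102 FPKM and *Crhr2* at 3.79 ± 0.474 and 3.84 ± 0.307 FPKM. Each of these overlapped between Ctrl and LKO. *Crhr1* was lower without overlap, at 5.89 ± 0.0411 and 5.32 ± 0.246 FPKM, a difference under the 1.5-fold limit. The LKO libraries of hypothalamus also had the higher pituitary hormone transcripts given above, whose part in these values was not tested. In each of the other tissues 1 gene of the list reached the level for testing. In liver this was *Avpr1a*, a vasopressin receptor of hepatocytes, which fell from 25.6 ± 1.31 to 10.5 ± 1.03 FPKM (log2 fold change -1.21, adjusted limma p 9.3e-04). In iWAT it was again *Avpr1a* (-0.15, overlapping groups), and in GM it was *Crhr2*, lower without overlap at 17.1 ± 1.71 and 11.4 ± 1.58 FPKM (-0.55, unadjusted limma p 0.00171, adjusted p 0.430) and under the 1.5-fold limit.

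A list written for steroid inactivation had 8 genes tested in liver. Of these 6 passed, 2 higher (*Cyp3a11* and *Srd5a3*) and 4 lower, against 25.2% and 3.75% of all genes. What each gene does to corticosterone was not tested. *Cyp3a11*, which hydroxylates steroids, rose to 3083 ± 227 FPKM from 1489 ± 229 FPKM (log2 fold change 1.06, adjusted limma p 0.0043). *Ugt2b1*, *Srd5a1* and *Akr1c14*, which conjugate or reduce steroids, fell by 1.18, 1.06 and 1.00 on the log2 scale (adjusted limma p 0.00595, 0.0185 and 0.00405). In iWAT 1 of 3 passed, *Srd5a1*, which fell from 3.21 ± 0.791 to 1.37 ± 0.222 FPKM (log2 fold change -0.82, adjusted limma p 0.111). The list had 0 calls among 4 tested genes in GM and 0 among 3 in hypothalamus.

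A list of 32 other glucocorticoid-induced transcripts was then compared with the members. In liver 13 of 26 tested genes passed, 10 higher and 3 lower, against 28.9% of all genes (25.2% higher and 3.75% lower). All 13 also had an adjusted p under 0.05, 2 of them (*Rgs2* and *Nedd9*) reached 1 FPKM in LKO livers only, and the median log2 fold change was 0.37 beside 0.33 for all genes. In iWAT 4 of 28 passed, all higher (1.95% of all genes), with a median of 0.42, in GM 9 of 27, all higher (0.579%), with a median of 0.31, and in hypothalamus 3 of 26, all higher (0.166%), with a median of 0.06. None of the iWAT, GM or hypothalamic calls had an adjusted p under 0.05.

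The metallothioneins *Mt2* and *Mt1*, which bind zinc and are induced by metals as well, rose most in liver, *Mt2* from 3.05 ± 0.631 to 197 ± 72.5 FPKM (log2 fold change 5.54, adjusted limma p 1.5e-04) and *Mt1* from 13.4 ± 3.47 to 339 ± 111 FPKM (log2 fold change 4.53, adjusted limma p 2.8e-04). *Pdk4*, which restrains glucose oxidation, had calls in liver, iWAT and GM, with log2 fold changes of 4.20, 1.28 and 2.15. *Lcn2*, a secreted iron carrier of the acute phase, rose in liver from 2.71 ± 0.140 to 29.8 ± 13.0 FPKM (log2 fold change 2.95, adjusted limma p 0.00142). It also passed unadjusted in iWAT (1.24, adjusted limma p 0.172) and was at 0.637 ± 0.195 FPKM in Ctrl and 3.15 ± 1.91 FPKM in LKO hypothalamus, where it reached 1 FPKM in LKO libraries only and so entered the fit through them. In GM the largest other values were those of *Angptl4*, an inhibitor of lipoprotein lipase, at 4.08 ± 1.70 and 16.3 ± 7.89 FPKM (log2 fold change 1.73, adjusted limma p 0.379), *Mt2* at 12.8 ± 4.34 and 33.3 ± 14.0 FPKM (1.28, adjusted limma p 0.516) and *Arrdc2* at 33.3 ± 16.9 and 63.3 ± 19.0 FPKM (0.97, adjusted limma p 0.662). The call of *Arrdc2* was lost without Ctrl 1 (0.70), Ctrl 2 (0.86), LKO 2 (0.80) or LKO 3 (0.87).

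In iWAT *Pck1*, the gene of glyceroneogenesis, was at 1209 ± 369 FPKM in Ctrl and 2744 ± 587 FPKM in LKO libraries (log2 fold change 1.21, adjusted limma p 0.152). *Map3k6*, a kinase gene, passed in iWAT (0.74, adjusted limma p 0.291) and hypothalamus (0.59, adjusted limma p 0.999). Its iWAT call was lost without Ctrl 1 (0.64), Ctrl 2 (0.67), LKO 2 (0.59) or LKO 3 (0.58), and its hypothalamic call without Ctrl 1 (0.44), Ctrl 2 (0.55), LKO 2 (0.55) or LKO 3 (0.54). *Angptl4* passed in hypothalamus as well, at 3.09 ± 0.585 and 6.05 ± 0.610 FPKM (0.79, adjusted limma p 0.348). The 3 genes of this list that fell in liver, *Tdo2*, *Arrdc2* and *G6pc*, work in tryptophan breakdown, receptor trafficking and glucose release, and fell by 0.69, 0.69 and 0.68 on the log2 scale.

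**Figure D4:**
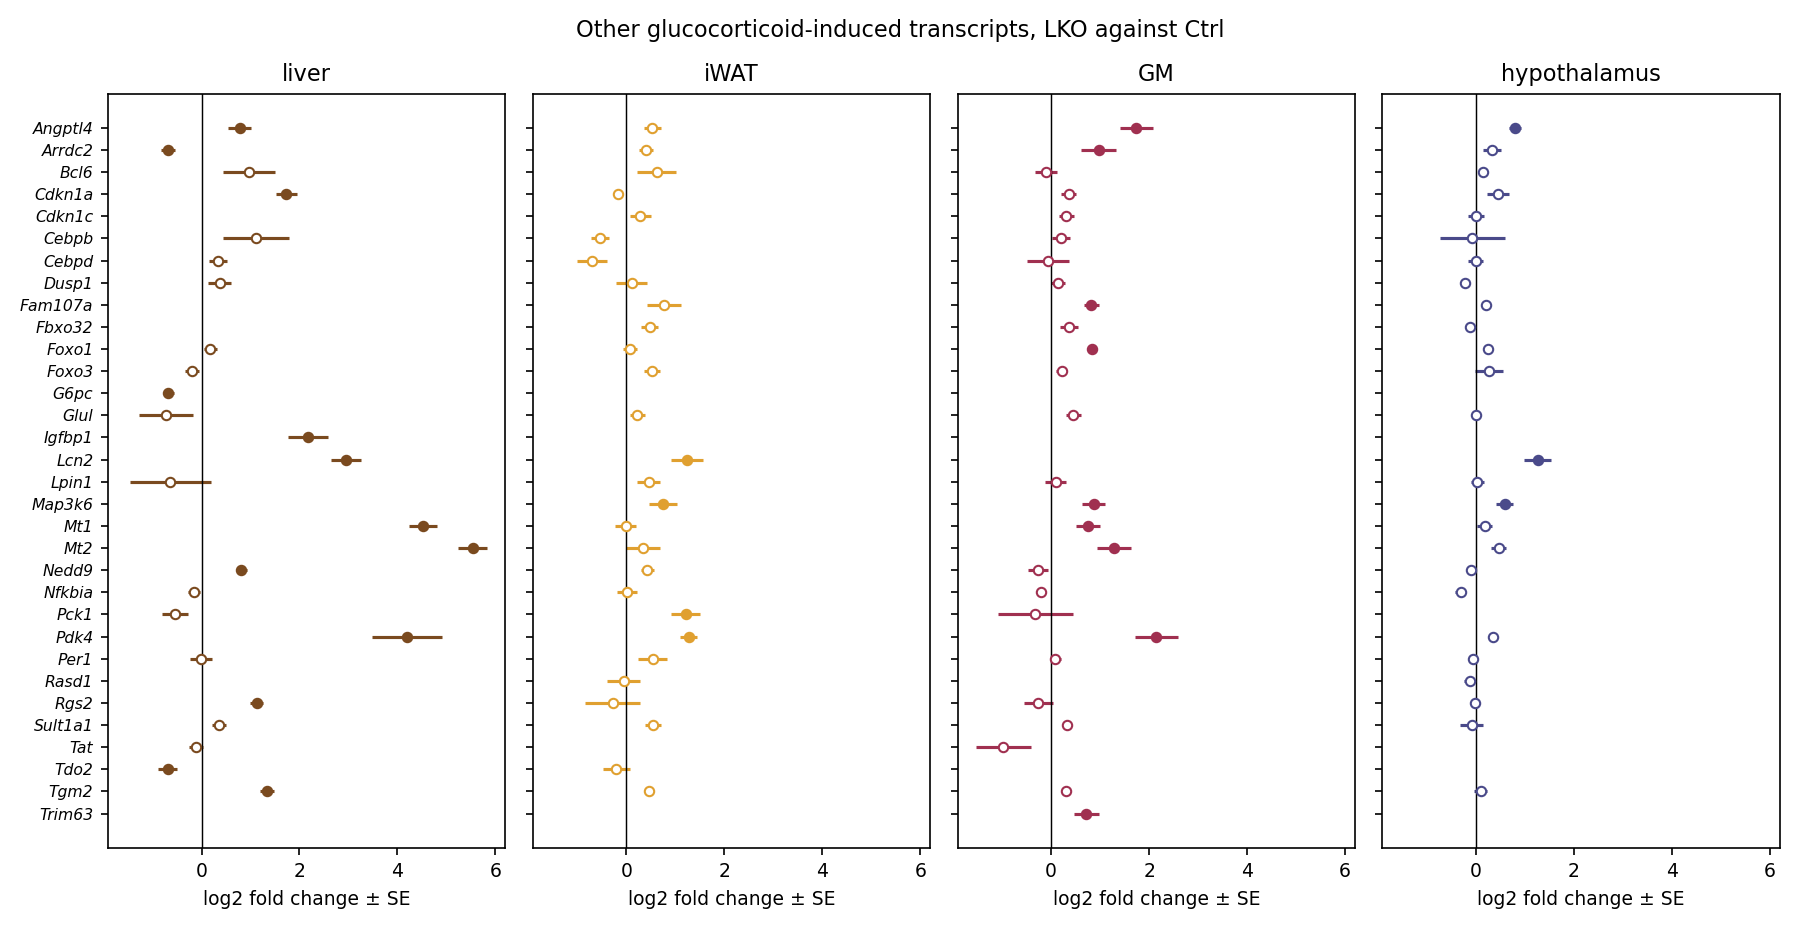
Log2 fold change of LKO against Ctrl with its standard error (3 libraries per group) for the tested genes of the list of other glucocorticoid-induced transcripts, 1 panel per tissue. Filled points met the criterion, 13 for liver, 4 for iWAT, 9 for GM and 3 for hypothalamus, and those outside liver all lie to the right of 0.

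Of transcripts that glucocorticoids are known to repress in inflammation, 5 of 6 tested genes were higher in LKO livers with an adjusted p under 0.05, against 25.2% of all genes higher. Of these, *Ccl2* and *Il1b* reached 1 FPKM in LKO livers only, so that they entered the fit through the group where they were high. *Vcam1*, an adhesion molecule of vessels, rose to 15.6 ± 3.70 FPKM from 1.97 ± 0.211 FPKM (log2 fold change 2.46, adjusted limma p 3.4e-04), and *Ccl2*, which attracts monocytes, was at 0.314 ± 0.180 FPKM in Ctrl and 3.54 ± 0.359 FPKM in LKO livers. *Icam1* and *Cxcl10* rose with log2 fold changes of 1.29 and 1.24 (adjusted limma p 0.00394 and 0.00762). The same livers had the higher macrophage and neutrophil markers given above, whose part in these values was not tested. In iWAT 1 of 5 passed, *Cxcl10*, which was lower (-0.94, adjusted limma p 0.247), and the call was lost without Ctrl 1 (-0.74), Ctrl 2 (-0.84) or LKO 2 (-0.69). The list had 0 calls among 3 genes in GM and 0 among 2 in hypothalamus.

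*Ddit4*, *Sgk1* and *Errfi1* answer to other signals too. Lists for ATF4, hypoxia and the clock were read in the same way, and none covered mineralocorticoids, insulin or the EGF receptor. Of ATF4 targets 10 of 11 tested genes were higher in liver, against 25.2% of all genes and with 3 of the 10 at 1 FPKM in LKO livers only, 0 of 11 passed in iWAT, 1 of 9 in GM (*Chac1*, log2 fold change 1.57, adjusted limma p 0.728, lost without Ctrl 1 (1.10), Ctrl 3 (1.39), LKO 2 (1.28) or LKO 3 (1.3)) and 0 of 10 in hypothalamus. Hypoxia-induced transcripts passed in liver with 4 of 7 (3 higher, 1 lower, against 28.9% of all genes), in iWAT with 0 of 8, in GM with 1 of 10 (*Pfkfb3*, 1.00, adjusted limma p 0.563) and in hypothalamus with 0 of 10. In liver *Slc2a1* and *Pfkfb3* of that list had log2 fold changes of 0.98 and -1.16, and their calls were lost without Ctrl 2 (0.90 and -0.84) or Ctrl 3 (1.02 and -1.02), that of *Slc2a1* also without Ctrl 1 (1.01) or LKO 3 (0.51). *Ndrg1* (0.77) and *Ero1l* (0.75) rose in liver and stayed under the limit after median-ratio scaling (0.39 and 0.41), and the call of *Ero1l* was also lost without LKO 3 (0.51).

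Clock genes and their output passed in liver with 3 of 10, all lower (3.75% of all genes lower, 28.9% in either direction), in iWAT with 2 of 12, both higher (1.95%), and with 0 of 11 in GM and 0 of 13 in hypothalamus. *Hlf* and *Tef*, whose transcripts cycle over the day, fell by 0.77 and 0.61 on the log2 scale in liver (adjusted limma p 0.0032 and 0.00981), and the call of *Tef* was lost without Ctrl 2 (-0.51). *Per2*, a core clock gene, was at 2.15 ± 0.497 FPKM in Ctrl and 0.849 ± 0.0610 FPKM in LKO livers and reached 1 FPKM in Ctrl livers only, so that it entered the fit through them. In iWAT the clock repressors *Nr1d1* and *Nr1d2* had log2 fold changes of 1.41 and 0.83 (adjusted limma p 0.161 and 0.221), and that of *Nr1d2* no longer passed without LKO 3 (0.74). Over all 8 lists, 45 of 83 tested genes passed in liver (28.9% of all genes), 9 of 81 in iWAT (3.25%), 12 of 78 in GM (0.901%) and 4 of 84 in hypothalamus (0.333%). Without LKO 1 the iWAT count was 19, without Ctrl 1 the GM count was 7, and the hypothalamic count was 2 without Ctrl 2 and 1 without LKO 2 or LKO 3.

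Variation within groups, which genotype and tissue do not enter, was described next. With each library set against the mean of its own group on log2(FPKM + 1), the 28 pairs of members had a median Pearson correlation of 0.48 over the 24 libraries, from 0.02 for *Zbtb16* and *Errfi1* to 0.78 for *Tsc22d3* and *Errfi1*, with all 28 above 0. The libraries of a group share a tissue and genotype but not a depth, and these values describe the libraries and carry no test. The correlations rested on the libraries numbered 1, as follows. In all 8 groups that library had the lowest mean over the 8 members, and it was the lowest of its group in 50 of the 64 combinations of member and group, against 7 for number 2 and 7 for number 3. *Fkbp5*, *Klf9*, *Ddit4* and *Hif3a* were lowest in it in 7 of 8 groups, *Tsc22d3* and *Sgk1* in 6, and *Zbtb16* and *Errfi1* in 5. Of 9022 genes above the level for testing in every tissue, 0.709% were lowest in it in at least 7 groups, 4.0% in at least 6 and 15% in at least 5, and for 1.1% any 1 of the 3 numbers was lowest in at least 7. This number was singled out after the values were seen. With the libraries numbered 1 left out, the median correlation of the 28 pairs over the other 16 libraries was -0.11, with 11 pairs above 0. The labels do not say what a number stands for. Library 1 was the deepest of its group for Ctrl and LKO in liver and iWAT. Its depth was 8.09 gigabases in Ctrl liver (5.56 and 5.42 for numbers 2 and 3) and 7.95 in Ctrl iWAT (5.22 and 4.63). In LKO iWAT it was 7.58 (4.78 and 4.91). In GM and hypothalamus it was the deepest of no group. The part of depth in these values was not tested.

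**Figure D5:**
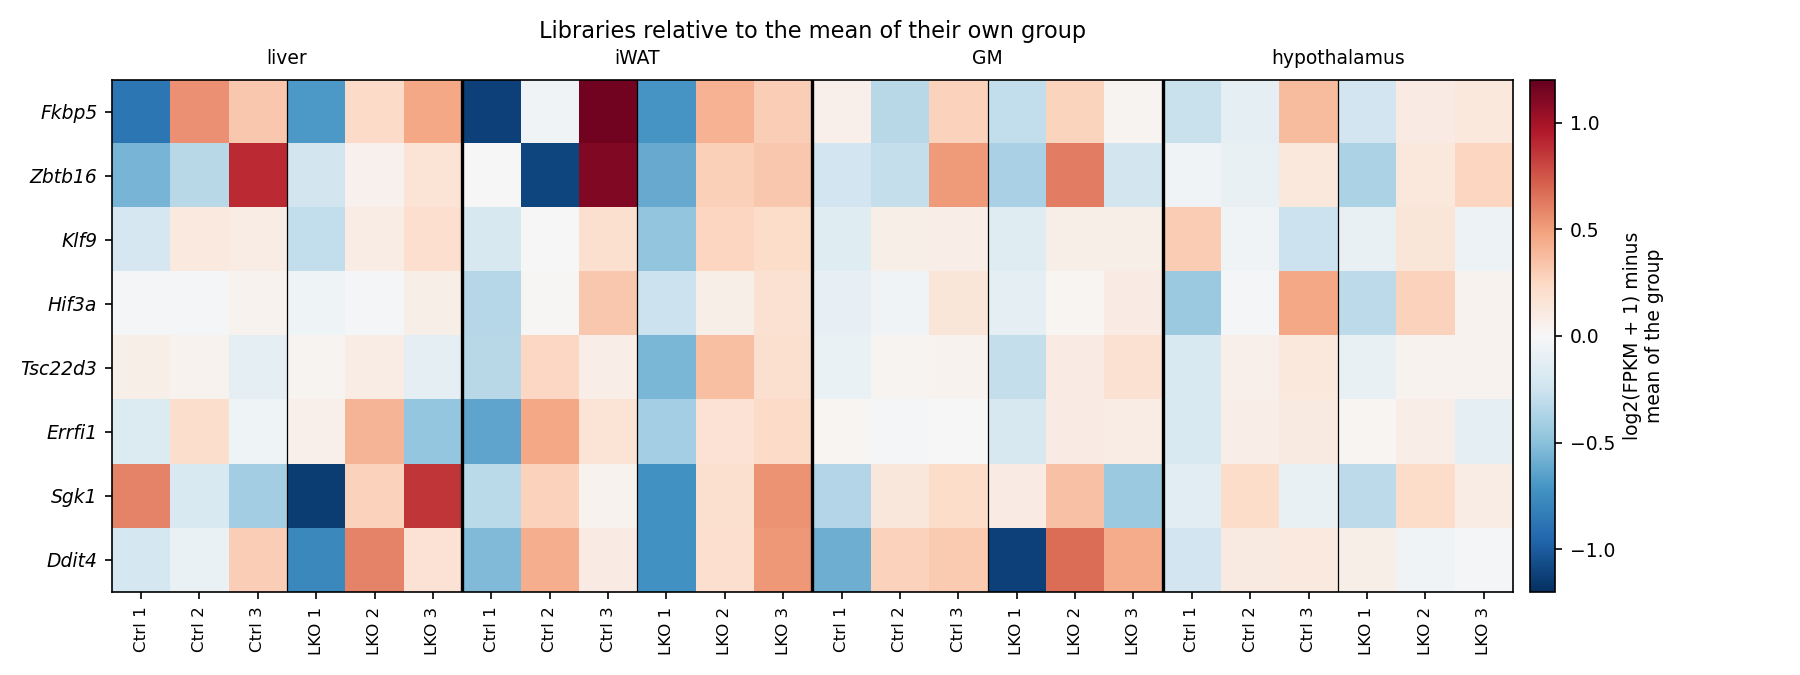
Each library relative to the mean of its own group on log2(FPKM + 1), for the 8 transcripts (rows) and 24 libraries (columns, by tissue and genotype). Blue cells are below the group mean, and they gather in the columns numbered 1, which held the lowest value in 50 of 64 combinations of transcript and group.

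The genes whose levels followed the mean of the 8 members most closely within groups, among 9015 genes above the level for testing in every tissue, were *Fgfr1* (Pearson r 0.89), *Smug1* (0.88), *Cyp26b1* (0.87), *Adgrf5* (0.86), *Bcl2l1* (0.86), *Ppp1r13l* (0.85), *Camk2n1* (0.82) and *Tmem204* (0.82) over 24 libraries, where the median gene had 0.12. Without the libraries numbered 1 these ranged from -0.04 for *Smug1* to 0.71 for *Cyp26b1*. With only the tissue mean removed, so that genotype enters, the closest were *Mertk* (0.86), *Aff1* (0.85), *Bcl2l1* (0.84), *Fgfr1* (0.82), *Zkscan17* (0.82), *Cmip* (0.80), *Dclre1b* (0.80) and *Wdfy1* (0.80), where the median gene had 0.27. Without the libraries numbered 1 they ranged from 0.67 for *Fgfr1* to 0.94 for *Mertk*. None of these genes was in a list of pathway genes used here.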

How the data were processed

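RNA libraries (TruSeq RNA v2, which does not keep the strand, read as paired ends) of 4 tissues from Ctrl and LKO mice were used, 24 in all. The authors deposited FPKM per gene on mm10 in 1 joined table, and per library a table with FPKM, TPM (which the authors scaled to an equal sum in each library) and the mean coverage, which they did not scale for depth. The submitters' processing notes name FastQC 0.11.5, Trimmomatic 0.32, HISAT2 2.0.5, Bowtie2 2.2.6, STAR 2.5.2b and StringTie 1.3.3b without a role. Counting error is unknown, as the values are not counts.

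Genes with at least 1 FPKM in 3 of the 6 libraries of a tissue were fitted with limma 3.58.1 in R 4.3.3 (trended, moderated variances) on log2(FPKM + 1), with Benjamini-Hochberg adjustment over all genes fitted. All p-values are two-sided. The fit was tested on simulated data. Levels of Ctrl tissues were compared in 1 fit of 12 libraries taken as independent, and with the library number as a block, since same-numbered Ctrl livers and iWAT deviated together (correlations of 0.20, 0.16 and 0.35 for numbers 1 to 3). The number is from the labels, which do not say what it marks. Correlations were Pearson's.

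The members and the gene lists, written from general knowledge, were chosen with earlier results of these data known. Named were all members, the genes of the receptor and hormone lists (summarised by range), in each other list up to 4 genes per tissue with the largest change past the criterion, and the 8 genes closest to the members' mean. *Tdo2*, *Arrdc2*, *G6pc* and *Srd5a3* in liver were named after their values were seen. Some genes of the rule, ATF4 targets in liver among them, are given as counts only. Gene positions are those of the deposited tables on mm10, and promoter windows are RefSeq's on GRCm38.p6. Alternatives were a pseudocount of 0.1, no filter, a mean of at least 5 FPKM, TPM, median-ratio scaling, quantile normalization, ordinary variances, a replicate block, 1 fit of all 24 libraries, and leaving out each library.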

Additional observations from a re-analysis of the deposited data

Results flagged for a closer look

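*Tsc22d3* went in opposite directions in 2 tissues. In liver every LKO library was below every Ctrl library (log2 fold change -1.82), and in hypothalamus every LKO library was above every Ctrl library (log2 fold change 0.35). The difference between the tissues was not tested. Groups of 3 libraries are too small for a test of single libraries that stand apart, and none was made.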

How the results depend on the processing

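Of 444 values of members under alternatives, 433 kept their direction and 11 changed it. The changes were in *Klf9* in liver, *Ddit4* in iWAT and GM, *Errfi1* in GM and *Sgk1* in hypothalamus. Some values that kept it moved past their standard error, as *Tsc22d3* in liver did after median-ratio scaling (-1.82 to -2.21, standard error 0.11). Of 766 values of named pathway genes, 693 kept direction and call, 70 lost the call and 3 reversed. The reversals were *Nr3c1* without 1 library, in GM (0.02, from -0.073 to 0.0993 over the 6 libraries left out in turn) and hypothalamus (-0.05, from -0.1404 to 0.048). The cause of the changes below was not tested. Without the filter on low values the median log2 fold change of members in liver was 0.664. With genes of a mean of at least 5 FPKM, 1915 of all genes passed in liver (3168 otherwise), 61 in GM (98) and 27 in hypothalamus (46), pathway genes passing were 7 in GM (12) and 0 in hypothalamus (4), and members in hypothalamus 1 (3) with a median of 0.12. Fewer genes are tested there. Quantile normalization gave 1913 genes in liver. With a pseudocount of 0.1 there were 178 genes in GM and 86 in hypothalamus. Ordinary variances gave 4 members in liver (6) and 0 in iWAT (2), pathway genes of 29 in liver by adjusted p (44), 5 in iWAT (9), 7 in GM and 2 in hypothalamus, and 57 genes in GM and 21 in hypothalamus. In 1 fit of all 24 libraries, 4 pathway genes in iWAT and 2 in GM passed by adjusted p (0 otherwise). With libraries numbered 1 left out, an alternative chosen after seeing the data, the median correlation of members was -0.1106 (0.48).

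Leaving out each library in turn gave, for pathway genes by adjusted p, 27 to 45 in liver, 0 to 1 in iWAT and 0 to 1 in GM. By unadjusted p it gave 7 to 19 in iWAT, 7 to 17 in GM and 1 to 5 in hypothalamus. All genes passing ranged from 1937 to 3914 in liver, 297 to 608 in iWAT, 81 to 201 in GM and 34 to 69 in hypothalamus, and members in GM from 0 to 1. Between Ctrl tissues 6 to 8 members, *Hif3a* included, passed the F test. FPKM carry no counts, so that counting error at low levels, as for *Hif3a*, is unknown.

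With the replicate number as a block, 4 members passed in iWAT (*Fkbp5* and *Sgk1* in addition) and 14 pathway genes, *Crh* in hypothalamus no longer passed (unadjusted p 0.0678), and the share of GM calls that were higher was 46.9%. Same-numbered Ctrl and LKO libraries did not deviate together throughout. The correlations of their deviations were 0.15, 0.03 and 0.04 in liver, 0.30, -0.12 and 0.20 in iWAT, 0.35, 0.05 and 0.16 in GM, and -0.13, 0.14 and 0.09 in hypothalamus for numbers 1 to 3, so that the numbers were not taken as pairs in these comparisons. In the comparisons of LKO with Ctrl the block changed no other call of a member or of a value named for its call. Between Ctrl tissues, the correlations were over 0.1 for all numbers only for liver and iWAT (0.20, 0.16 and 0.35), with a range of -0.19 to 0.20 over the other pairs of tissues. Between LKO tissues they were over 0.1 for all numbers only for GM and hypothalamus (0.13, 0.15 and 0.39). The fit of all 24 libraries took the libraries as independent.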
